A study of Mus musculus with 21 samples.

Results

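Prdx2, Gpx1, Cat, Sod1, Sod2, Gclc, Gclm, Hmox1, Txnrd1 and Nfe2l2 encode enzymes and a regulator that keep reactive oxygen species in check in red cells and leukocytes. They were taken as the rows of the deposited expression table that carry these symbols, and all 10 were found among 14273 genes. The table covered 21 RNA-seq libraries of spleen cells from C57BL/6 mice, in 7 groups of 3. In 6 groups the cells had been sorted as Ter119+CD71+, an erythroid surface pattern, and split into CD45+ and CD45- cells. Tumor-bearing, anemic and neonatal mice each gave 1 group of either kind, and the seventh group was CD11b+Gr1+ myeloid-derived suppressor cells (MDSC) from tumor-bearing mice. The labels used here name no tumor line, no cause of the anemia and no age in days, and leave unsaid if 3 libraries in a group stand for 3 animals. The p-values below therefore measure only the spread between libraries, which may be technical.

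Red cells carry large amounts of oxygen and iron, so superoxide and hydrogen peroxide form in them continuously. Superoxide dismutases turn superoxide into hydrogen peroxide, which peroxiredoxins, glutathione peroxidases and catalase then remove. Glutamate-cysteine ligase makes the first intermediate of glutathione, thioredoxin reductase recharges thioredoxin, and haem oxygenase breaks down haem. The transcription factor NRF2, the product of Nfe2l2, raises transcription of many of these genes in stressed cells.

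The value of a gene in a library is given as 2 raised to the deposited log2 number. The sources used here do not name the quantity behind the logarithm, so values are compared between libraries for the same gene and never between genes, and the number of reads behind a value is unknown. Summed over all genes, the values of a library came to 227961 to 349261. Haemoglobin genes took 11.3% to 46.3% of the sum in the CD45- libraries, 1.29% to 14.9% in the CD45+ libraries and 0.0264% to 0.487% in MDSC, and the third library of each group had the lowest share of its group. The sort was visible in the transcripts: Ptprc, which encodes CD45, was at 86.7 to 477 in the 9 CD45+ libraries and at 1.23 to 5.5 in the 9 CD45- libraries. Tfrc, which encodes CD71, was at 326 to 1495 in the CD45- libraries, 40.6 to 161 in the CD45+ libraries and 36 to 54.3 in MDSC, so the CD45+ and MDSC ranges of this sort antigen overlapped. In each status CD45+ cells had more of all 9 neutrophil markers, with summed values of 11175 to 29349 in tumor, 481 to 2735 in anemia and 9391 to 11803 in neonatal CD45+ libraries, against 44549 to 69239 in MDSC.

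In each status the CD45+ cells had less transcript of 5 of the 10 genes than the CD45- cells: Prdx2, Gpx1, Cat, Gclc and Gclm. Hmox1 was higher in CD45+ cells of each status, and Sod2 and Txnrd1 were higher in the neonatal CD45+ cells. The contrast used limma on log2(value + 1), with Benjamini-Hochberg adjustment over all 11195 genes that reached a value of 1 in 3 or more of the 18 Ter119+CD71+ libraries. All 10 genes met this filter, and the lowest value of any of them in any library was 2.66. In tumor-bearing mice 1 of the 10 was higher and 5 were lower in CD45+ cells, where 50.2% and 10.9% of all genes were. In anemia 1 was higher and 5 were lower, against 47.4% and 11.3% of all genes. In neonatal mice 3 were higher and 5 were lower, against 49.6% and 10.3% of all genes. The median difference of the 10 genes was -0.60, -0.74 and -0.59 on the log2 scale in tumor, anemia and neonatal cells, while that of all genes was 0.75, 0.68 and 0.75. Median-ratio scaling, which sets the bulk of genes equal between libraries, moved the median of all genes to 0.05, 0.03 and 0.05. All genes then split into 3520 higher and 2895 lower in tumor, 3252 and 2859 in anemia, and 3287 and 2746 in neonatal mice, and after quantile normalization into 2617 and 3060, 2647 and 2990, and 2663 and 2808. Of the 10 genes, 1 was then higher and 7 lower in tumor after median-ratio scaling, 0 and 7 in anemia, and 1 and 6 in neonatal mice.

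**Figure D1:**
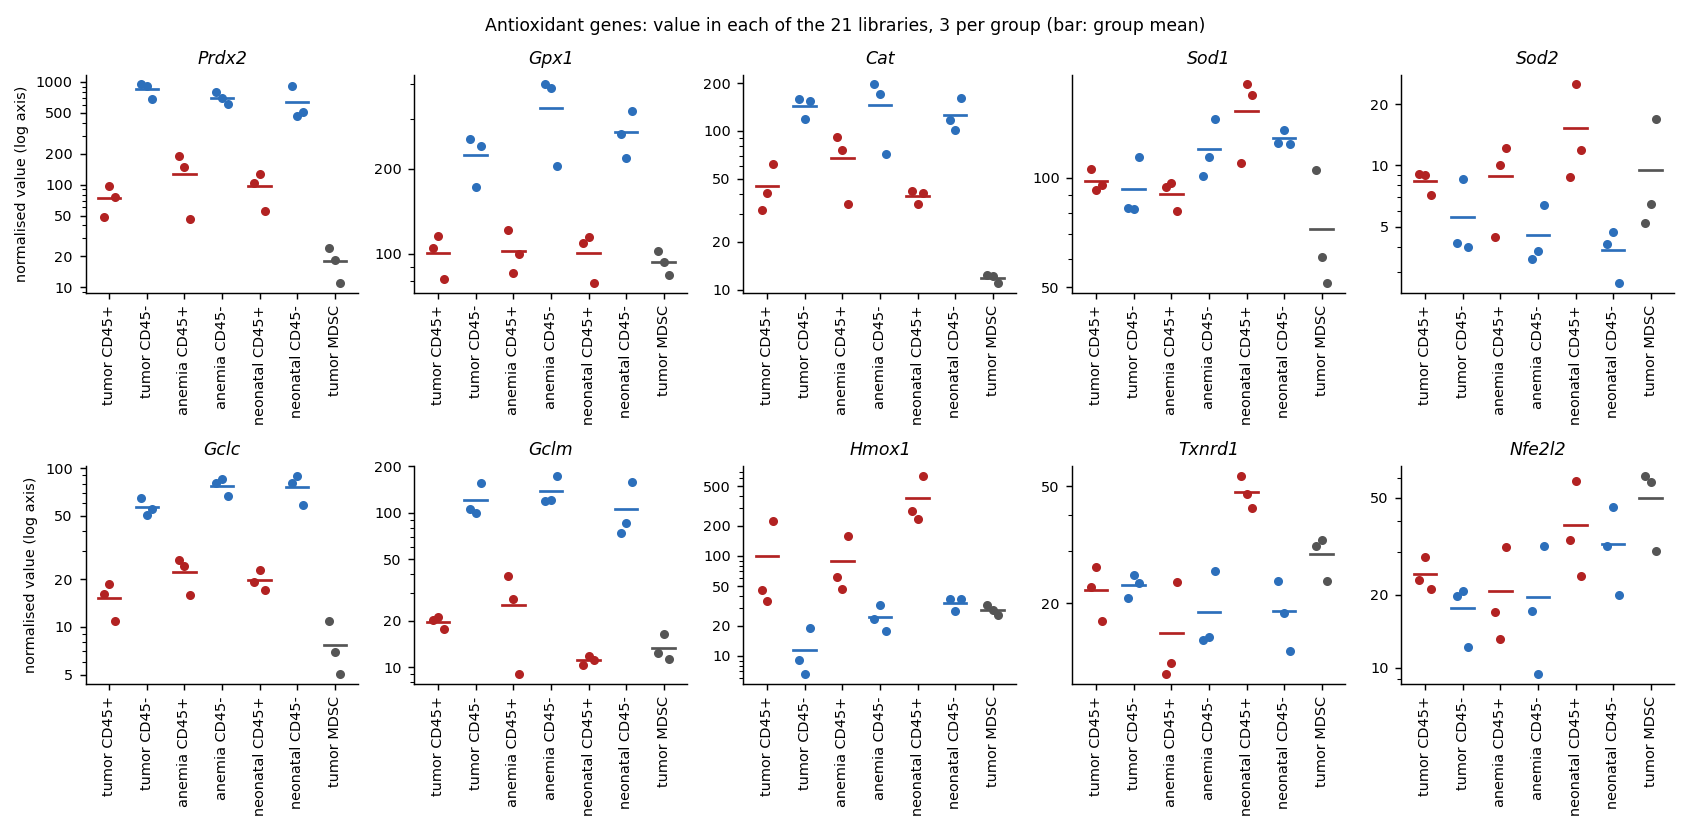
Values of the 10 genes in each of the 21 libraries, on log axes; points are libraries, horizontal bars are group means, red is CD45+, blue is CD45- and grey is MDSC. In the panels of Prdx2, Gpx1, Gclc and Gclm the 9 red points lie below the 9 blue points.

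Prdx2 encodes peroxiredoxin 2, an abundant thiol peroxidase of red cells, and it was the gene of the 10 with the widest range of group means, 47.2-fold between tumor CD45- cells and MDSC. In tumor CD45- cells its values were 946, 911 and 688, and in tumor CD45+ cells 48, 97.5 and 76.2. In anemia they were 807, 694 and 611 without CD45 and 188, 149 and 46 with it. In neonatal mice they were 923, 467 and 509 without CD45 and 104, 128 and 55.1 with it. The groups did not overlap in any status, and the lowest value of anemia and of neonatal CD45+ cells was that of the third library. On the log2(value + 1) scale Prdx2 fell by 3.55 ± 0.46 (SE) in tumor CD45+ cells, an 11.7-fold difference (limma, adjusted p = 4.6e-06). It fell by 2.67 ± 0.46 in anemia (limma, adjusted p = 9.5e-05) and by 2.73 ± 0.46 in neonatal mice (limma, adjusted p = 8.1e-05).

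Gpx1 encodes glutathione peroxidase 1, which reduces hydrogen peroxide with glutathione. Its values were 255, 172 and 241 in tumor CD45- cells and 105, 116 and 81.5 in tumor CD45+ cells. In anemia they were 397, 385 and 205 against 121, 85.6 and 100, and in neonatal mice 266, 219 and 321 against 109, 115 and 79.1. All 9 CD45+ libraries lay below all 9 CD45- libraries, and the 3 CD45+ group means were nearly alike at 101, 102 and 101. Gpx1 fell by 1.13 ± 0.30 in tumor (limma, adjusted p = 0.0033), by 1.63 ± 0.30 in anemia (0.00016) and by 1.40 ± 0.30 in neonatal CD45+ cells (0.00064). After median-ratio scaling the 3 differences were -2.11, -2.54 and -2.35.

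Cat encodes catalase, which splits hydrogen peroxide into water and oxygen. Values in tumor CD45- cells were 159, 118 and 154 and in tumor CD45+ cells 31.8, 40.8 and 62.2. Neonatal values were 117, 101 and 161 without CD45 and 42, 34.9 and 40.8 with it, again without overlap. In anemia the groups overlapped: CD45- values were 196, 171 and 71.8 and CD45+ values 91.8, 75.3 and 34.7, with the third library lowest in both. Cat fell by 1.70 ± 0.39 in tumor (limma, adjusted p = 0.0013), by 1.64 ± 0.39 in neonatal (0.0018) and by 1.09 ± 0.39 in anemia CD45+ cells (0.024). The anemia difference was -1.01 with an adjusted p of 0.078 after quantile normalization. It was -0.68 (0.15) without the third anemia CD45+ library, -0.82 (0.12) without the first anemia CD45- library and -0.92 (0.093) without the second.

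Gclc and Gclm encode the catalytic and the modifier subunit of glutamate-cysteine ligase, the rate-limiting step of glutathione synthesis. Gclc values were 65, 50.4 and 55.3 in tumor CD45- cells and 16.1, 18.6 and 10.9 in tumor CD45+ cells. In anemia they were 80.6, 85.1 and 66.9 against 26.3, 24.3 and 15.9, and in neonatal mice 81, 89.6 and 58.5 against 19.1, 22.9 and 17. The difference was between 3.44-fold and 3.71-fold on the log2(value + 1) scale in every status. Gclc fell by 1.86 ± 0.26 in tumor (limma, adjusted p = 9.9e-06), by 1.78 ± 0.26 in anemia (1.6e-05) and by 1.89 ± 0.26 in neonatal CD45+ cells (9.5e-06).

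Gclm, the modifier subunit, had larger differences than Gclc, which are tested further on as a ratio. Its values were 105, 99.6 and 155 in tumor CD45- cells and 20.3, 21.1 and 17.7 in tumor CD45+ cells. In anemia they were 118, 120 and 173 against 38.7, 27.8 and 9.05, and in neonatal mice 73.8, 85 and 157 against 10.3, 11.8 and 11.1. The third library was the highest of each CD45- group and the lowest of the tumor and anemia CD45+ groups. Gclm fell by 2.52 ± 0.40 in tumor (limma, adjusted p = 3.9e-05), by 2.59 ± 0.40 in anemia (3.1e-05) and by 3.06 ± 0.40 in neonatal CD45+ cells (5.7e-06).

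The decreases of Prdx2, Gpx1, Gclc and Gclm in the 3 statuses, and those of Cat in tumor and neonatal mice, passed the test under each of the other 8 settings and on leaving out each library in turn. The erythroid marker list moved with them. All 10 of its 10 genes were in the table and all 10 were lower in CD45+ cells of each status. Its summed value was 12488 to 18511 in CD45+ and 57858 to 167724 in CD45- libraries of tumor-bearing mice, 3075 to 37798 and 29648 to 133796 in anemia, and 6448 to 24400 and 80316 to 137182 in neonatal mice. The lowest sum, 3075, was that of the third anemia CD45+ library, which also had the lowest Prdx2 and Gclm of the 9 CD45+ libraries. Its Gpx1 (100), Cat (34.7) and Gclc (15.9) were not the lowest. Gpx1 was at 79.1 in the third neonatal, Cat at 31.8 in the first tumor and Gclc at 10.9 in the third tumor CD45+ library. The part of the erythroid content in these decreases was not tested. In sorted bulk samples like these, fewer cells of a type and less RNA per cell cannot be told apart.

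**Figure D2:**
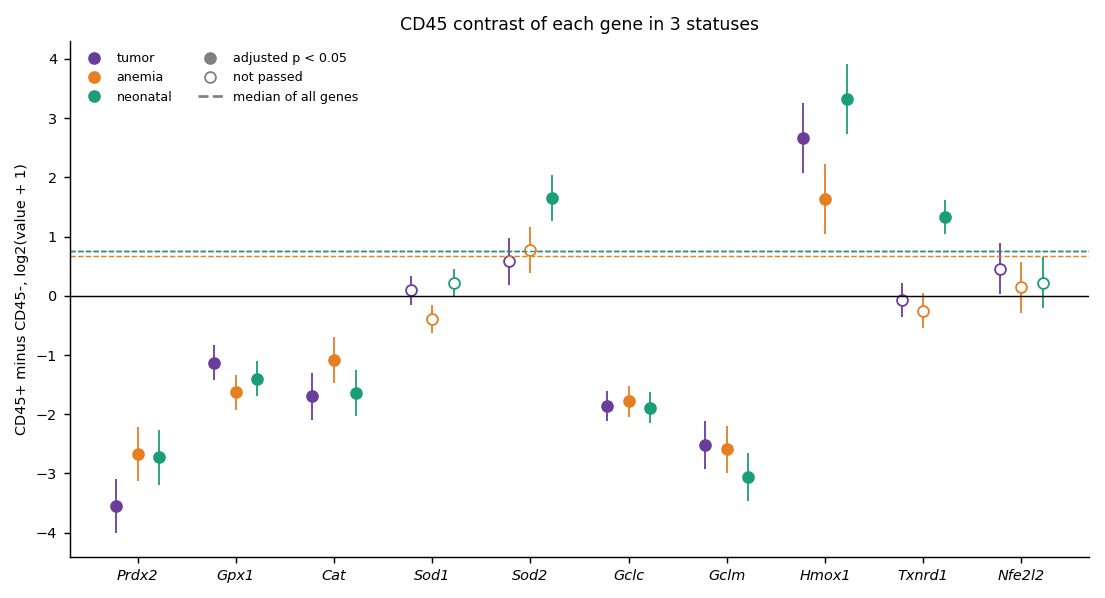
Difference between CD45+ and CD45- cells for the 10 genes in each status, in log2(value + 1), with bars of 1 SE; filled points passed the test, and dashed lines give the median of all genes. Prdx2, Gpx1, Cat, Gclc and Gclm are filled and negative in all 3 statuses, and Hmox1 is filled and positive, from 1.64 in anemia to 3.32 in neonatal mice.

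Promoter sequence is shown for 3 of the genes that fell together, and around a motif for 2 genes whose CD45 contrast did not pass in tumor-bearing mice. RefSeq's promoter table (build GRCm38.p6; 250 bases before to 50 after each transcription start) held 10 windows for 8 of the 10 genes, all but Gclc and Hmox1. The authors' build, mm8, differs, so these positions cannot be laid on their alignments. Both strands were searched for the core of the antioxidant response element, TGACNNNGC, where NRF2 binds, for the GATA motif AGATAA and for the CACC box CCACACCC. The antioxidant response element core was in 4 of the 10 windows, those of Gclm, Sod1, Nfe2l2 and the second of the 3 Txnrd1 starts, and in 12.4% of all 32851 windows. The GATA motif was in 0 of the 10 (11.2% of all windows) and the CACC box in 0 of the 10 (3.56%). A match is a string of letters and not a measured binding site, and a window without one says nothing about the factor. The first 3 lines give the stretch within 250 bases upstream that carries no annotated exon, and the other two give 61 bases around the match. All are written 5′ to 3′ on the strand of the gene, with a match to the antioxidant response element core in capitals, which in each case is the reverse strand of the motif.
Gclm, chr3:122245307-122245556, plus strand: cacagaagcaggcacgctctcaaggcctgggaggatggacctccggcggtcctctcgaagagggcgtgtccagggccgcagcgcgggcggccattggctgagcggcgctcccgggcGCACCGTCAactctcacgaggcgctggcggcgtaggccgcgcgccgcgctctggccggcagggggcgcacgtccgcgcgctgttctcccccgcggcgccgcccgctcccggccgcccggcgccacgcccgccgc
Cat, chr2:103485161-103485403, minus strand: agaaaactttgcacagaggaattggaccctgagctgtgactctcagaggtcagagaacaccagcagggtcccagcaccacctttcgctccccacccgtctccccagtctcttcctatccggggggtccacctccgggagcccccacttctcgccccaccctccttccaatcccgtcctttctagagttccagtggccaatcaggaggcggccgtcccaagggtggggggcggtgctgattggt
Gpx1, chr9:108338830-108339053, plus strand: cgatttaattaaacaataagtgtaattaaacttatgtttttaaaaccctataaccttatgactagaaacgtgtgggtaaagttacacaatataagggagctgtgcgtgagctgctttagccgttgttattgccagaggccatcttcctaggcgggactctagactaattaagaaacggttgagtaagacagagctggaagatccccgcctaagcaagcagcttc
Txnrd1, second start, chr10:82859088-82859148, plus strand: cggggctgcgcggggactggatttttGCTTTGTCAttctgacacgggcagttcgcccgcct
Sod1, chr16:90220680-90220740, plus strand: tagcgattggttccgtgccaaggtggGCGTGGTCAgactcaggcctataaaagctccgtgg
Counted back from the start, the match began 134 bases upstream in Gclm, 92 in Txnrd1 and 56 in Sod1. The whole windows held 79.7% G and C in Gclm, 62.0% in Cat and 47.0% in Gpx1, against a median of 52.7% over all windows. Gclm, with a match, and Gpx1 and Cat, with no match in their windows, were all lower in CD45+ cells.

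Hmox1, which encodes the stress-induced haem oxygenase that macrophages also use to recycle haem from engulfed red cells, went the other way. Its values were 9.02, 6.61 and 19 in tumor CD45- cells and 45.6, 35.8 and 222 in tumor CD45+ cells. In anemia they were 23.5, 32.6 and 17.8 against 61.1, 46.9 and 158, and in neonatal mice 37.2, 28.2 and 37 against 279, 236 and 635. The groups did not overlap within any status, and the third library was the highest of each CD45+ group. Hmox1 rose by 2.66 ± 0.59 in tumor (limma, adjusted p = 0.001), by 1.64 ± 0.59 in anemia (0.025) and by 3.32 ± 0.59 in neonatal CD45+ cells (0.00015). The tumor and neonatal increases passed under each alternative tried, with values from 1.72 to 3.15 and from 2.38 to 3.60. The anemia increase was 0.75 (adjusted p = 0.29) after median-ratio scaling. It was 1.13 (0.14) without the third anemia CD45+ library, 1.63 (0.059) without the first anemia CD45- library and 1.44 (0.077) without the third. With the third libraries of all groups left out it was 0.93 and passed (0.0056).

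Markers of splenic red pulp and erythroblast island macrophages moved with Hmox1 in part. All 11 of the list's genes were in the table and none was at 0 in all 3 libraries of any group. Of the 11, 9 were higher in tumor, 5 in anemia and 10 in neonatal CD45+ than CD45- cells, and 0 were lower, where 50.2%, 47.4% and 49.6% of all genes were higher. The anemia count was thus near the share of all genes. The summed value was 231, 182 and 1111 in tumor CD45+ libraries, in the same order as Hmox1 at 45.6, 35.8 and 222, and 2009, 1598 and 2753 in neonatal CD45+ libraries, again in the order of Hmox1. In the anemia CD45+ libraries the sum was 150, 203 and 167, so the library with the highest Hmox1 did not have the highest sum. Of a second list, 7 general monocyte and macrophage markers, 6 were higher and 0 lower in CD45+ cells of each status. Their sum was 160, 175 and 508 in tumor, 139, 126 and 319 in anemia and 735, 496 and 635 in neonatal CD45+ libraries. It was highest in the library with the highest Hmox1 in tumor and in anemia, but not in neonatal mice. In the CD45- libraries this sum was 8.86 to 39.2, and in MDSC, where Hmox1 was at 25.7 to 32.3, it was 270 to 584. The red pulp sum was 39.1 to 233 over the CD45- libraries and 65 to 111 in MDSC. The part of macrophage RNA in the Hmox1 differences was not tested.

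**Figure D3:**
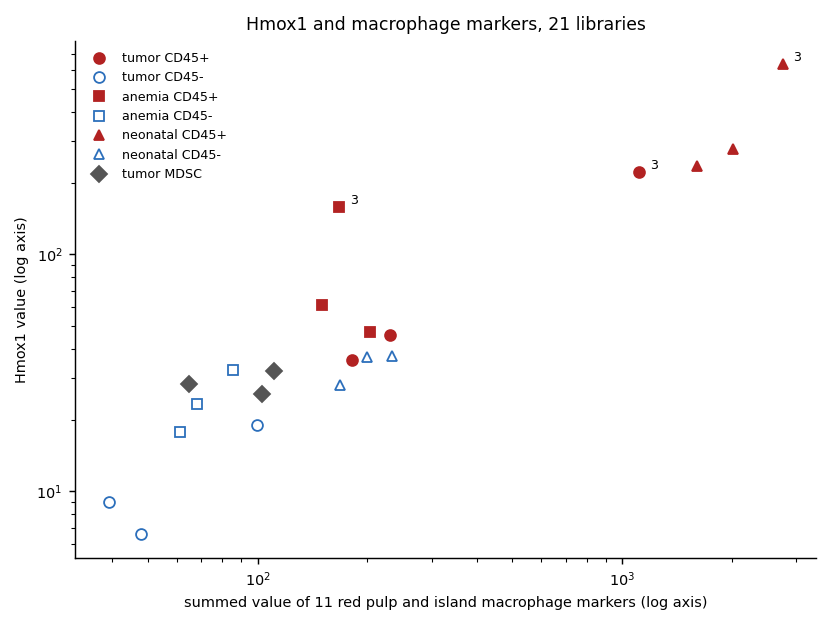
Hmox1 value against the summed value of 11 red pulp and island macrophage markers in the 21 libraries, both on log axes; filled red symbols are CD45+, open blue symbols CD45- and grey diamonds MDSC, and 3 marks the third library of each CD45+ group. The neonatal CD45+ libraries (Hmox1 236 to 635) and the third tumor CD45+ library (222) stand at the upper right, while the third anemia CD45+ library (158) has a sum of 167, inside the range of its group.

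The superoxide dismutases differed less. Sod1 encodes the cytosolic enzyme and had values of 82.8, 82.3 and 114 in tumor CD45- and 106, 92.7 and 95.9 in tumor CD45+ cells. Its differences were 0.09 ± 0.24 in tumor (interval -0.42 to 0.60 at the 95% level), -0.39 ± 0.24 in anemia and 0.22 ± 0.24 in neonatal mice, and none passed (limma, adjusted p = 0.75, 0.18 and 0.44). This depended on the scaling: after median-ratio scaling the 3 differences were -0.88, -1.29 and -0.73, all passing as lower (0.0019, 7.3e-05 and 0.0081). Sod2, the mitochondrial enzyme, was at 8.82, 25 and 11.9 in neonatal CD45+ cells and at 4.11, 4.72 and 2.66 in neonatal CD45- cells, without overlap. It rose there by 1.65 ± 0.39 (limma, adjusted p = 0.0016), but the difference was 0.82 (0.081) after median-ratio scaling and 0.75 (0.15) after quantile normalization, where it did not pass. In tumor its difference was 0.58 ± 0.39 (interval -0.25 to 1.40) and in anemia 0.77 ± 0.39 (-0.05 to 1.60), with adjusted p of 0.21 and 0.097 in limma. Without the first anemia CD45+ library the anemia value was 1.16 (0.021).

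Txnrd1 encodes the cytosolic thioredoxin reductase. In neonatal mice its values were 54.3, 47 and 42.1 in CD45+ and 23.9, 18.6 and 13.8 in CD45- cells, and every neonatal CD45+ library lay above every library of the other 6 groups. There it rose by 1.33 ± 0.29 (limma, adjusted p = 0.00091). In tumor the groups overlapped at 22.7, 26.6 and 17.4 against 20.8, 24.9 and 23.5, a difference of -0.07 ± 0.29 (0.86), and in anemia at 11.5, 12.5 and 23.7 against 15, 15.4 and 25.7, a difference of -0.25 ± 0.29 (0.49). The CD45 contrast in anemia differed from that in neonatal mice by -1.58 ± 0.41 (interaction term in limma, adjusted p = 0.028), and Txnrd1 was the only gene of the 10 that passed this test, where 6.93% of all genes did. Leaving out any of 7 of the 18 libraries ended this call: anemia CD45+ 1 or 2, anemia CD45- 3, neonatal CD45+ 1 or 2, and neonatal CD45- 2 or 3, with adjusted p from 0.054 to 0.084. Scaling also moved the contrasts themselves: after median-ratio scaling Txnrd1 was lower in tumor (-1.01, adjusted p = 0.0063) and anemia CD45+ cells (-1.10, 0.0037), and its neonatal difference was 0.41 (0.24). In anemia it was also lower after quantile normalization (-0.81, 0.024).

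Nfe2l2, the gene of NRF2 itself, did not pass in any CD45 contrast. Its values in tumor were 23, 28.6 and 21 with CD45 and 19.8, 20.7 and 12.2 without it, which did not overlap, and the difference was 0.46 ± 0.43 (interval -0.44 to 1.37; limma, adjusted p = 0.36). In anemia the values were 17, 13.2 and 31.4 against 17.2, 9.45 and 31.8, and in neonatal mice 33.5, 58.4 and 23.8 against 31.7, 45.7 and 19.9. Libraries with the same number were high or low together here: the third was highest in both anemia groups and the second in both neonatal groups. The differences were 0.14 ± 0.43 (-0.77 to 1.04) in anemia and 0.22 ± 0.43 (-0.68 to 1.13) in neonatal mice.

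**Figure D4:**
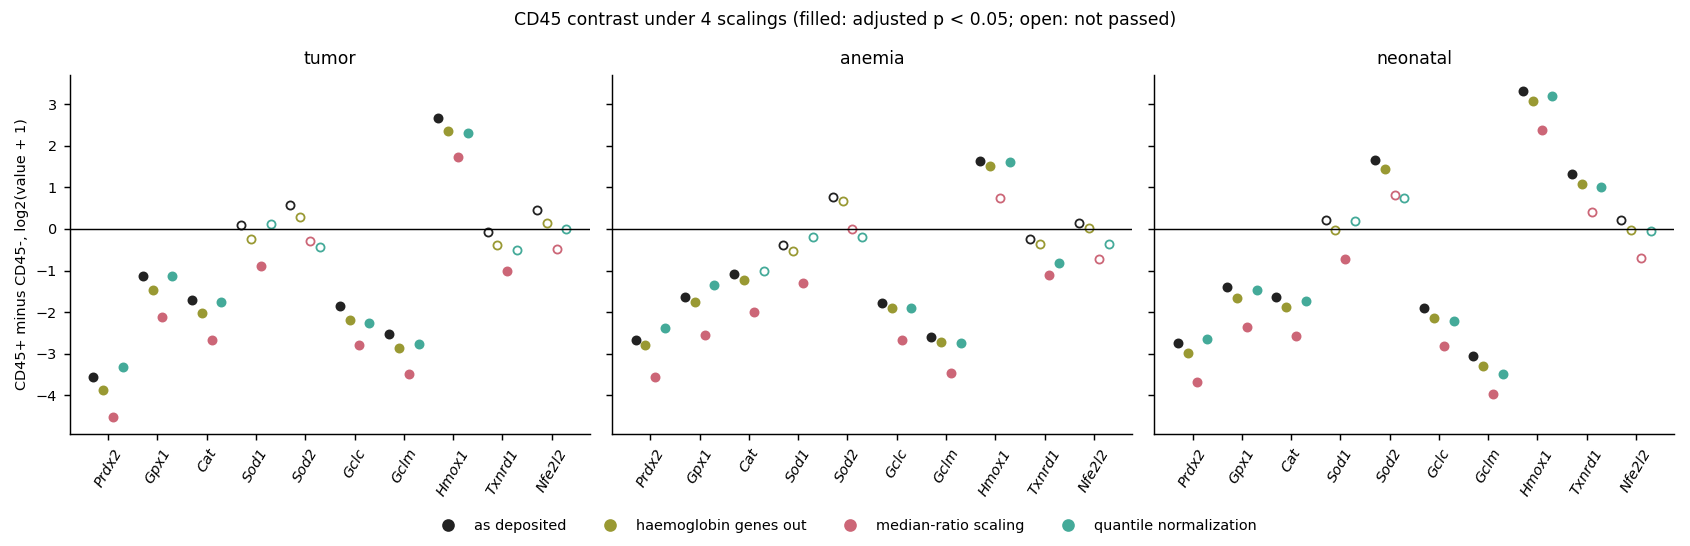
CD45+ minus CD45- difference of the 10 genes in each status, in log2(value + 1), with values as deposited, with haemoglobin genes left out of the sum, after median-ratio scaling and after quantile normalization; filled points passed the test. Prdx2, Gpx1, Gclc and Gclm are filled and negative under all 4, whereas Sod1 moves in tumor from 0.09 as deposited to -0.88 after median-ratio scaling.

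The contrasts of the 5 lower genes were set against each other across statuses with the interaction terms. Comparing tumor with anemia, 0 of the 10 genes passed in limma, 0 had an unadjusted p under 0.05, and 2.2% of all genes passed. Comparing tumor with neonatal mice, 0 passed, against 1.08% of all genes, and 1 had an unadjusted p under 0.05, Txnrd1 at -1.39 ± 0.41 (adjusted p = 0.14). For Prdx2 the tumor contrast was lower than the anemia contrast by 0.88 ± 0.65, with an interval of -2.24 to 0.49, and an adjusted p of 0.59. For Gclc the same term was -0.08 ± 0.36, with an interval of -0.85 to 0.69. With the third libraries of all groups left out 2 genes passed for tumor minus anemia (Gpx1 at 1.01, Hmox1 at 1.32). For tumor minus neonatal 1 passed (Txnrd1 at -1.11), and for anemia minus neonatal 3 did: Gclm at 0.91, Hmox1 at -2.02 and Txnrd1. Of all 10618 genes tested in that setting, 1822, 730 and 1791 passed in the same order.

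A ratio of 2 genes within a library does not depend on a factor that scales the whole library. For this reason 3 ratios were compared between CD45+ and CD45- cells. The difference was averaged over the 3 statuses and tested by exact permutation of the CD45 labels within each status, two-sided, over 8000 arrangements. The log2 ratio of Gpx1 to Prdx2 was 0.49 ± 0.56 (SD, n = 3) in tumor CD45+ and -1.94 ± 0.45 in tumor CD45- cells. In anemia it was -0.11 ± 1.07 and -1.15 ± 0.38, and in neonatal mice 0.14 ± 0.35 and -1.19 ± 0.57. On average the ratio was higher by 1.60 in CD45+ cells (exact permutation test, p = 0.00025, the smallest these arrangements can give; adjusted over the 3 ratios, 0.00075). Within each status all 3 CD45+ libraries lay above all 3 CD45- libraries, so Prdx2 was lower relative to Gpx1 there.

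The log2 ratio of Gclm to Gclc was lower by 0.90 in CD45+ cells, a difference of -0.90 (exact permutation test, adjusted p = 0.002), with -0.65 in tumor, -0.83 in anemia and -1.23 in neonatal mice. The mean ratio was 0.40 ± 0.26 (SD, n = 3) in tumor CD45+ and 1.06 ± 0.40 in tumor CD45- cells, -0.02 ± 0.71 and 0.81 ± 0.49 in anemia, and -0.82 ± 0.18 and 0.41 ± 0.88 in neonatal mice. The ranges of CD45+ and CD45- libraries overlapped at their ends in tumor, at 0.18 to 0.70 and 0.70 to 1.49, and in anemia, at -0.82 to 0.56 and 0.50 to 1.37. In neonatal mice they did not overlap. The third CD45- libraries had the highest ratio of their groups, at 1.49, 1.37 and 1.43, and without the third libraries of all groups the average difference was -0.52 (adjusted p = 0.028). The log2 ratio of Sod2 to Sod1 was higher by 1.18 in CD45+ cells (exact permutation test, adjusted p = 0.002), with 0.58 in tumor, 1.29 in anemia and 1.67 in neonatal mice. In tumor the ranges of this ratio overlapped, at -3.74 to -3.37 in CD45+ and -4.83 to -3.26 in CD45- libraries.

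Among CD45+ cells the 3 statuses were compared directly, and each group enters 2 of these comparisons. Between tumor and anemia 0 of the 10 genes passed in limma and 0 had an unadjusted p under 0.05, where 5.82% of all genes were higher and 4.91% lower in tumor. The estimates ran from -0.61 ± 0.46 for Prdx2 to 0.51 ± 0.29 for Txnrd1. Without the third libraries of all groups, 4 genes were lower in tumor CD45+ cells, namely Prdx2 (-1.28, adjusted p = 0.023), Cat (-1.19, 0.0015), Gclc (-0.52, 0.04) and Gclm (-0.64, 0.018), and Txnrd1 was higher (0.98, 0.0022). Those libraries hold the lowest Prdx2, Cat, Gclc and Gclm of the anemia CD45+ group, at 46, 34.7, 15.9 and 9.05. Of all 10618 genes tested without the third libraries, 1845 were lower and 1663 higher in tumor.

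Hmox1 and Txnrd1 were lower in tumor than in neonatal CD45+ cells, 2 of the 10 genes against 4.41% of all genes, and 0 were higher against 2.2% of all genes. Hmox1 differed by -2.26 ± 0.59 (limma, adjusted p = 0.027) and Txnrd1 by -1.08 ± 0.29 (0.032). The Hmox1 call ended without tumor CD45+ library 1 or 2 or neonatal CD45+ library 1 or 3 (adjusted p from 0.062 to 0.17). The Txnrd1 call ended after median-ratio scaling (-1.01, 0.051), without any 1 of the 3 tumor CD45+ libraries, and without neonatal CD45+ library 1 or 2 (0.051 to 0.14). Without the third libraries of all groups Gclm was higher in tumor, by 0.85 (0.0079), where 940 of 10618 genes were. In the same comparison 5 of the 11 red pulp macrophage markers were lower in tumor CD45+ cells and 0 were higher. Lower too were 3 of the 7 monocyte and macrophage and 2 of the 5 megakaryocyte markers, while 1 neutrophil and 1 erythroid marker were higher. Their part in these differences was not tested.

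Between anemia and neonatal CD45+ cells 3 of the 10 genes were lower in anemia, against 11.3% of all genes, and 0 were higher against 9.08%. Txnrd1 differed by -1.59 ± 0.29 (limma, adjusted p = 0.00075), a 3.02-fold difference that passed under each alternative tried. Hmox1 differed by -2.16 ± 0.59 (0.015), and this ended without anemia CD45+ library 1 or 2 or neonatal CD45+ library 3 (0.063 to 0.081). Sod1, at 94.2, 96.6 and 80.9 in anemia and 110, 181 and 169 in neonatal CD45+ cells, differed by -0.72 ± 0.24 (0.043). The Sod1 call ended in 5 of the 8 other settings and on leaving out any of 12 single libraries. Its values there ran from -0.77 to -0.44, and over all alternatives tried from -0.94 to -0.44. Without the third anemia CD45+ library Gclm was higher in anemia by 1.49 (0.003). Moving in the same comparison, 10 of the 11 red pulp macrophage markers and 8 of the 9 neutrophil markers were lower in anemia CD45+ cells. So were 4 of the 7 monocyte and macrophage markers, with 1 higher, and 3 of the 5 megakaryocyte markers. All 6 B cell markers, 6 of the 7 T and NK cell markers and 1 of the 10 erythroid markers were higher in anemia. The part of these cell types in the differences was not tested. Without the third libraries of all groups, Cat (1.10) and Gclm (1.49) were higher and Nfe2l2 (-1.50) was lower in anemia. Of all 10618 genes tested in that setting, 1879 were higher and 2121 lower.

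Among CD45- cells 0 of the 10 genes passed in limma in any of the 3 comparisons between statuses. In tumor against anemia 0.116% of all genes were higher and 0.0357% lower, in tumor against neonatal mice 0.402% and 2.13%, and in anemia against neonatal mice 0.947% and 3.39%. At an unadjusted p under 0.05 there were 0, 1 and 0 of the 10. The 1 was Hmox1 in tumor against neonatal mice, with values of 9.02, 6.61 and 19 against 37.2, 28.2 and 37 and a difference of -1.60 ± 0.59 (adjusted p = 0.24). For Prdx2 the 3 differences were 0.26, 0.48 and 0.21, each with an SE of 0.46. Without the third libraries of all groups 2 genes were lower in tumor than in anemia (Gpx1 at -0.90 and Hmox1 at -1.72). In tumor against neonatal mice 1 was then lower (Hmox1 at -1.94). In anemia against neonatal mice Gpx1 (0.69), Cat (0.75) and Gclm (0.58) were then higher and Nfe2l2 (-1.50) lower. Of all 10618 genes tested in that setting, 246 were higher and 306 lower, 368 and 1115, and 914 and 1610 in the same order.

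In MDSC, a mixed population of immature neutrophils and monocytes that suppress T cells, Prdx2, Gpx1, Cat, Sod1 and Gclc had their lowest mean of the 7 groups. How many of all genes had theirs in MDSC is not given here. For Gpx1 and Sod1 the MDSC values overlapped those of the next group, whereas for Prdx2, Cat and Gclc they did not. Prdx2 was at 24.4, 18.4 and 11.1, Cat at 12.4, 12.2 and 11.1 and Gclc at 10.9, 6.96 and 5.05, each below every CD45- library of the 3 statuses. The 9 libraries from tumor-bearing mice were fitted together, over 10255 genes. Tumor CD45- cells were higher than MDSC in 5 genes, against 14.3% of all genes: Prdx2 by 5.53 ± 0.33 (limma, adjusted p = 1.8e-07), Cat by 3.47 ± 0.26 (9.4e-07), Gclm by 3.07 ± 0.24 (1.2e-06), Gclc by 2.79 ± 0.29 (1.1e-05) and Gpx1 by 1.23 ± 0.24 (0.0011). The same 5 genes were those lower in tumor CD45+ than in tumor CD45- cells, and both comparisons share the tumor CD45- libraries. Nfe2l2, at 61.5, 58.2 and 30.2 in MDSC, was lower in tumor CD45- cells by 1.43, a difference of -1.43 ± 0.31 (0.0024), where 42.1% of all genes were lower. After median-ratio scaling this was -0.78 (0.093), and all genes split into 2725 higher and 3225 lower, where they had split into 1466 and 4316. Sod1 differed by 0.41 ± 0.28 (0.23) between tumor CD45- cells and MDSC. It passed as higher in the CD45- cells after median-ratio scaling (1.07, 0.0031), with haemoglobin genes left out of the sum (0.94, 0.015) and without the first MDSC library (0.71, 0.045).

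Tumor CD45+ cells stood between CD45- cells and MDSC for Prdx2 and Cat. Against MDSC, Prdx2 was higher by 1.99 ± 0.33 (limma, adjusted p = 0.0067) and Cat by 1.78 ± 0.26 (0.0035), 2 of the 10 genes against 5.42% of all genes, and 0 were lower against 0.995%. All genes split into 556 higher and 102 lower, and after median-ratio scaling into 346 and 313. Without the third libraries of all groups Prdx2 was at 1.65 (0.061). Gpx1, at 105, 116 and 81.5 in tumor CD45+ cells and 102, 93.4 and 84.3 in MDSC, differed by 0.10 ± 0.24 (0.85) with overlapping ranges. Gclc, at 16.1, 18.6 and 10.9 against 10.9, 6.96 and 5.05, differed by 0.93 ± 0.29 (0.086), and passed with haemoglobin genes left out of the sum (1.10, 0.043) and with all 21 libraries in the fit (0.035). Nfe2l2 was at -0.96 ± 0.31 (0.096). With the replicate number as a block, the adjusted p of Nfe2l2 was 0.031. Hmox1 differed by 1.29 ± 0.60 (0.24), with the third tumor CD45+ library at 222 and the others at 45.6 and 35.8 against 25.7 to 32.3 in MDSC. All 10 erythroid markers were higher in tumor CD45+ cells than in MDSC, as were 6 of 6 B cell, 4 of 6 T and NK cell and 4 of 10 red pulp macrophage markers.

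The order of the group means put the genes in different orders. Prdx2, Gpx1, Cat, Gclc and Gclm had the 3 CD45- groups in the first 3 places, with no overlap between the third and the fourth group. For Cat the first and the fourth group did overlap, at 71.8 to 196 in anemia CD45- and 34.7 to 91.8 in anemia CD45+ cells. The share of all genes with such an order is not given here. Within those 3 CD45- groups neighbouring groups overlapped for each of the 5 genes. Hmox1 had the 3 CD45+ groups first, with neonatal cells at 383 ± 219 (SD, n = 3) above tumor at 101 ± 105 and anemia at 88.7 ± 60.6. For Sod1, Sod2 and Nfe2l2 every group overlapped its neighbour in the order, and 13, 15 and 17 of the 21 pairs of groups overlapped. Nfe2l2 had its highest mean in MDSC, at 50 ± 17.2, and its lowest in tumor CD45- cells, at 17.6 ± 4.65, a 2.85-fold range.

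As a description over the 21 libraries, which share sort, status and haemoglobin content, the log2 values of the 5 lower genes went together. Pearson's r was 0.96 between Prdx2 and Gclc, 0.94 between Prdx2 and Cat, 0.87 between Gclc and Gclm and 0.80 between Gpx1 and Cat. Among 4315 genes with a mean value of at least 10, those most like Prdx2 were Alad (r = 0.990), an enzyme of haem synthesis, Zfpm1 (0.987), which encodes the GATA1 partner FOG1, and Add2 (0.986), which encodes a red cell membrane skeleton protein. Those most like Cat were led by Slc14a1 (0.986), the red cell urea transporter, and those most like Gclc included Odc1 (0.972) and Epor (0.972), the erythropoietin receptor. Gclm was led by Narf (0.970) and Gpx1 by Cenpa (0.945). The gene most like Hmox1 was Adgre1 (0.963), which encodes the macrophage antigen F4/80, followed by Plxnb2 (0.946) and Ifi30 (0.944). Sod1, Sod2, Txnrd1 and Nfe2l2 had no gene as close: their best values were 0.735 for Slc29a1, 0.830 for Bzw1, 0.853 for Scarb1 and 0.781 for Arpc1a.

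The other genes of the antioxidant system, grouped by role, came to 75 genes in 8 lists, of which 74 were in the table and 68 were tested. In tumor 32 were higher and 12 lower in CD45+ cells, in anemia 26 and 11, and in neonatal mice 29 and 10. Of all genes 50.2%, 47.4% and 49.6% were higher and 10.9%, 11.3% and 10.3% lower, so the share of these genes called higher was not above that of all genes, while the share called lower was above it. Their median difference was 0.85, 0.56 and 0.78, close to the 0.75, 0.68 and 0.75 of all genes. After median-ratio scaling the counts were 27 and 24, 19 and 22, and 22 and 17. Those of all 11016 genes were then 3520 and 2895, 3252 and 2859, and 3287 and 2746. Markers of several leukocyte types moved with the listed genes. In tumor, anemia and neonatal mice alike, 9 of 9 neutrophil, 6 of 6 B cell and 6 of 7 monocyte and macrophage markers were higher in CD45+ cells, as were 7, 7 and 5 of the 7 T and NK cell markers. The part of these cell types in the differences was not tested.

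NADPH is the reducing power on which both glutathione and thioredoxin recycling draw. Of the 10 tested genes of its supply, 9 were higher in tumor, 5 in anemia and 9 in neonatal CD45+ cells and 0 were lower, with medians of 2.11, 1.04 and 2.00. The share of all genes called higher was 50.2%, 47.4% and 49.6%, so the anemia count was near that of all genes. Pgd, an enzyme of the pentose phosphate pathway, rose by 4.04 ± 0.38 in tumor (limma, adjusted p = 1.1e-07), from a mean of 7.72 ± 2.56 (SD, n = 3) to 146 ± 57.5. Idh1, the cytosolic NADP-dependent isocitrate dehydrogenase, rose by 3.79 ± 0.37 in tumor (1.7e-07), from a low mean of 0.978 to 25.7. Nnt, the mitochondrial transhydrogenase, rose by 2.29 ± 0.21 in tumor, 2.00 ± 0.21 in anemia and 2.32 ± 0.21 in neonatal mice. Its means were low, under 1 in each CD45- group at 0.283, 0.5 and 0.779, against 5.33, 4.98 and 7.8 in CD45+ cells. After median-ratio scaling 7, 4 and 7 of the 10 were higher and 0, 2 and 1 lower. Among all 11016 genes 3520, 3252 and 3287 were then higher and 2895, 2859 and 2746 lower. All 10 NADPH supply genes were lower in tumor CD45- cells than in MDSC, where 42.1% of all genes were lower. Their median there was -2.60, against -0.56 for all genes.

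Peroxiredoxins and glutathione peroxidases did not all follow Prdx2 and Gpx1. Of 6 listed genes, Srxn1 and the other peroxiredoxins, 1 was higher, 1 lower and 4 did not pass in tumor and in anemia. In neonatal mice 2 were higher, 1 was lower and 3 did not pass. Of all genes 50.2%, 47.4% and 49.6% were higher and 10.9%, 11.3% and 10.3% lower in tumor, anemia and neonatal CD45+ cells. Prdx5, a peroxiredoxin of mitochondria, peroxisomes and cytosol, was at 148 ± 56.2 (SD, n = 3) in tumor CD45+ and 3.73 ± 1.53 in tumor CD45- cells. It rose by 4.95 ± 0.47 in tumor (limma, adjusted p = 1.2e-07), 2.17 ± 0.47 in anemia and 4.15 ± 0.47 in neonatal mice. Prdx3, the mitochondrial peroxiredoxin, fell by 1.06 ± 0.37 in tumor (0.02; 0.1 without the third libraries of all groups), by 1.60 ± 0.37 in anemia and by 1.11 ± 0.37 in neonatal mice. Prdx1 rose by 1.51 ± 0.44 in neonatal mice (0.0074), though by 0.58 (0.14) after median-ratio scaling without passing. In tumor Prdx1 was at 0.85 ± 0.44 (0.1) and in anemia at 0.98 ± 0.44 (0.067), and with the replicate block the adjusted p was 0.012 and 0.0052. Both also passed without the third libraries of all groups, at 0.89 (0.00087) and 1.41 (3.9e-05). Gpx4, which reduces lipid peroxides, fell by 0.81 ± 0.27 in tumor (0.017) and 1.36 ± 0.27 in anemia (0.00039). In neonatal mice Gpx4 was at -0.60 ± 0.27 (0.068). This passed in 5 of the 8 other settings: at -1.54 after median-ratio scaling (0.00089), at -0.84 with haemoglobin genes left out (0.012), at -0.75 without the third libraries (0.00041), and at -0.60 with the replicate block (0.028) and with all 21 libraries in one fit (0.049). Of the 5 genes listed as other glutathione peroxidases and Sod3, 2 were tested, Gpx4 and Gpx3. Gpx3 rose by 2.57 in tumor (limma, adjusted p = 5.9e-06), by 0.87 in anemia (0.037) and by 2.81 in neonatal mice (2.6e-06). Its means were low without CD45, at 0.133, 0.25 and 2, against 6.16, 1.36 and 21.4 with it. The anemia increase did not pass after median-ratio scaling (0.51, 0.22) or quantile normalization (-0.17, 0.76). Nor did it with all 21 libraries in one fit (0.051) or without the third libraries (0.57, 0.26).

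Gsr, glutathione reductase, was at 237 ± 116 (SD, n = 3) in tumor CD45+ cells, 27.3 ± 8.44 in tumor CD45- cells and 361 ± 60 in MDSC. It rose by 2.96 ± 0.50 in tumor (limma, adjusted p = 7.2e-05), by 2.67 ± 0.50 in neonatal mice (0.00021) and by 1.40 ± 0.50 in anemia (0.022; 0.4 after median-ratio scaling and 0.14 after quantile normalization). Of 8 genes of glutathione supply and recycling, 3 were higher and 2 lower in tumor, 3 and 1 in anemia, and 1 and 1 in neonatal mice. Of all genes 50.2%, 47.4% and 49.6% were higher, above each share of the list, and 10.9%, 11.3% and 10.3% were lower. The balance of the list turned with scaling, and that of all genes moved too. The list's counts were 3 and 4, 2 and 3, and 1 and 2 after median-ratio scaling, and 2 and 4, 0 and 3, and 1 and 2 after quantile normalization. Those of all genes were 3520 and 2895, 3252 and 2859, and 3287 and 2746 of 11016 after median-ratio scaling. They were 2617 and 3060, 2647 and 2990, and 2663 and 2808 of 11195 after quantile normalization. Of 11 glutathione transferases tested, 5 were higher and 3 lower in tumor and in anemia, and 4 and 3 in neonatal mice. The share higher was again no larger than among all genes, while the share lower was above that of all genes. After median-ratio scaling the transferase counts were 5 and 5, 3 and 4, and 4 and 3, and after quantile normalization 4 and 5, 2 and 4, and 4 and 5. Mgst2, a membrane-bound transferase, rose by 4.68 ± 0.29 in tumor, 3.46 ± 0.29 in anemia and 4.01 ± 0.29 in neonatal mice, and passed under each scaling tried. Its CD45- means were under 1, at 0.411, 0.116 and 0.467, against 36.6, 11.4 and 22.8 in CD45+ cells.

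Of 11 thioredoxin and glutaredoxin genes, 7 were higher in tumor, 4 in anemia and 6 in neonatal CD45+ cells, and 1 was lower in each. Among all genes 50.2%, 47.4% and 49.6% were higher and 10.9%, 11.3% and 10.3% lower. Msra, a methionine sulfoxide reductase, rose by 3.89 ± 0.31 in tumor (limma, adjusted p = 1.3e-08), 1.74 ± 0.31 in anemia and 3.16 ± 0.31 in neonatal mice, and its anemia difference was 0.52 (0.22) after quantile normalization. Its CD45- means were low, at 0.733, 0.918 and 1.17, against 26.6, 5.44 and 18.5 in CD45+ cells. After median-ratio scaling 4, 3 and 3 of the 11 were higher and 2, 3 and 2 lower, and after quantile normalization 4, 2 and 3 were higher and 1 lower in each. Among all 11016 genes 3520, 3252 and 3287 were higher and 2895, 2859 and 2746 lower after median-ratio scaling. With quantile normalization 2617, 2647 and 2663 of 11195 were higher and 3060, 2990 and 2808 lower.

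Of 10 tested partners and rivals of NRF2, 2 were higher, 2 were lower and 6 did not pass in each status, where 50.2%, 47.4% and 49.6% of all genes were higher and 10.9%, 11.3% and 10.3% lower. After median-ratio scaling 2 were higher in each and 5, 3 and 3 lower, and after quantile normalization 1, 2 and 1 were higher and 4, 2 and 3 lower. Among all 11016 genes 3520, 3252 and 3287 were higher and 2895, 2859 and 2746 lower after median-ratio scaling. With quantile normalization 2617, 2647 and 2663 of 11195 were higher and 3060, 2990 and 2808 lower. Bach2, a repressor that competes for the same DNA element and is known from lymphocytes, rose by 3.56 ± 0.38 in tumor (limma, adjusted p = 4.8e-07), 4.98 ± 0.38 in anemia (1.1e-08) and 2.29 ± 0.38 in neonatal mice (6.8e-05). Its CD45- means were under 1, at 0.155, 0.301 and 0.72. Its level was highest in anemia CD45+ cells, at 39.6 ± 3.27 (SD, n = 3). There the summed B cell markers were also highest, at 629 to 776 against 89.2 to 444 in the other CD45+ groups. So were the summed T and NK cell markers, at 113 to 196 against 20.8 to 84.5. The part of B, T and NK cell RNA in the Bach2 level was not tested. Nfe2, the erythroid and megakaryocytic relative of NRF2, fell by 1.98 ± 0.56 in tumor (0.0061), 2.58 ± 0.56 in anemia (0.00086) and 1.49 ± 0.56 in neonatal mice (0.031).

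Among 10 NRF2 targets and genes of haem breakdown, 4 were higher and 2 lower in tumor, 5 and 2 in anemia, and 4 and 2 in neonatal CD45+ cells. Of all genes 50.2%, 47.4% and 49.6% were higher and 10.9%, 11.3% and 10.3% lower. After median-ratio scaling the counts of the list were 4 and 5, 4 and 4, and 3 and 3, so lower genes outnumbered higher ones in tumor. After quantile normalization they were 4 and 3, 5 and 3, and 3 and 2. Among all 11016 genes 3520, 3252 and 3287 were higher and 2895, 2859 and 2746 lower after median-ratio scaling. With quantile normalization 2617, 2647 and 2663 of 11195 were higher and 3060, 2990 and 2808 lower. Hmox2, the constitutive haem oxygenase, was at 15.4 ± 1.49 (SD, n = 3) in tumor CD45+ and 3.44 ± 1.83 in tumor CD45- cells. It rose by 1.96 ± 0.29 in tumor (limma, adjusted p = 2.1e-05), by 1.71 ± 0.29 in anemia and by 2.08 ± 0.29 in neonatal mice, and passed under each scaling tried. Between tumor CD45+ cells and MDSC it differed by -0.07 ± 0.28 (0.92). Abcc1, an exporter of glutathione conjugates, rose by 1.77 ± 0.29, 2.03 ± 0.29 and 2.91 ± 0.29 in tumor, anemia and neonatal mice.

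**Figure D5:**
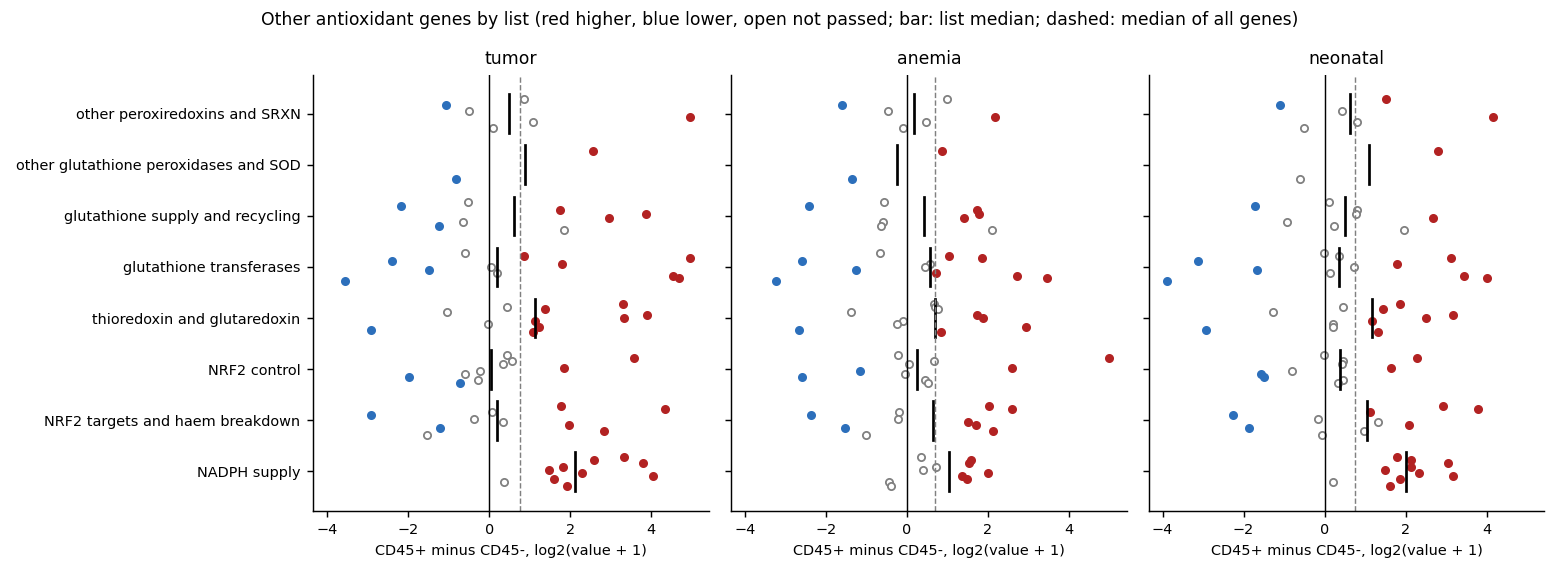
CD45+ minus CD45- difference in log2(value + 1) of the 68 other antioxidant genes tested, by list and status; red points were higher, blue points lower and open points did not pass, black bars are list medians and the dashed line is the median of all genes. The list of NADPH supply lies furthest to the right in tumor and neonatal mice, with 9 of 10 points red in each, and 5 of 10 in anemia.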

How the data were processed

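RNA-seq was done on 21 libraries of sorted mouse spleen cells, 3 in each of 7 groups taken from the sample titles. The authors deposited 1 table of log2 expression values per gene and library. Bowtie 0.12.2 and the genome build mm8 are named per the submitters' processing notes. The counting method, the normalization and the quantity behind the log2 values are not given in the sources used here, so read depth is unknown. The labels' extraction protocol speaks of retinas, while the tissue label says spleen. Blank cells (7.9%) were taken as 0, and 0 columns lacked a sample.

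Values were returned to the linear scale, and log2(value + 1) was tested with limma 3.58.1 (R 4.3.3, statmod 1.5.0), with trend and robust moderation. A gene was tested where 3 or more of the fitted libraries reached a value of 1. The 18 Ter119+CD71+ libraries were fitted together, and the 9 libraries of tumor-bearing mice for comparisons with MDSC. Adjustment was by Benjamini-Hochberg over all genes tested, with a threshold of 0.05, and the script was tested on simulated data. Intervals are 95% intervals from limma's moderated standard error and degrees of freedom, not adjusted for the number of genes. Tables were handled in Python 3.11.15 with numpy 2.4.6 and pandas 2.3.3.

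The members, the gene lists and the tests were chosen with earlier results of these data known. Beyond the 10 members, up to 3 genes of a list with the smallest adjusted p over the 3 CD45 contrasts could be named. Same-numbered libraries deviated together (each of 3 correlations over 0.1) in 5 of 11 comparisons: the 3 CD45 contrasts, tumor against neonatal CD45+ cells, and tumor CD45+ cells against MDSC. Correlations ran from -0.17 to 0.41 over the 11. Alternatives were a pseudocount of 0.1, no filter, median-ratio scaling, haemoglobin genes left out of the sum, quantile normalization, the replicate block, all 21 libraries in one fit, the third libraries of all groups left out, and each library left out in turn.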

Additional observations from a re-analysis of the deposited data

Results flagged for a closer look

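The contrast of Txnrd1 between CD45+ and CD45- cells differed between anemia and neonatal mice, by a test of that difference. That test was passed by 1 of the 10 genes, Txnrd1, and by 6.93% of all genes. The anemia contrast minus the neonatal contrast was -1.58 ± 0.41 (SE) on the log2(value + 1) scale (interaction term in limma, adjusted p = 0.028), with mean values of 15.9 and 18.7 in anemia CD45+ and CD45- cells and of 47.8 and 18.8 in neonatal CD45+ and CD45- cells. The value ran from -1.89 to -1.34 when single libraries were left out, and leaving out any of 7 of the 18 ended the call (adjusted p from 0.054 to 0.084).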

How the results depend on the processing

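Of 140 member values (10 genes in 14 comparisons), the number with a changed call was 1 with a pseudocount of 0.1, 0 without the filter, 11 after median-ratio scaling, 3 with haemoglobin genes left out, 4 after quantile normalization, 2 with the replicate block, 3 with all 21 libraries in one fit and 26 without the third libraries. The cause of these changes was not tested. After median-ratio scaling Sod1 turned from 0.09 to -0.88 in tumor and from 0.22 to -0.73 in neonatal mice. The genes higher in CD45+ cells then numbered 0 in anemia and 1 in neonatal mice, those lower in tumor than neonatal CD45+ cells 1, and those lower in tumor CD45- cells than MDSC 0. The replicate block added Nfe2l2 in tumor CD45+ cells against MDSC (1 lower) and Hmox1 in tumor CD45- cells against MDSC (2 lower, limma, adjusted p = 0.03). In the latter comparison the numbers did not pair the libraries. There, 1 of the 3 tumor CD45- libraries correlated best with the MDSC library of its own number. The block changed no other member call. All 21 libraries in one fit also gave 2 lower for tumor CD45- cells against MDSC. Without the third libraries of all groups the counts were 1 higher and 4 lower for tumor against anemia CD45+ cells, 1 higher for tumor against neonatal CD45+ cells, 2 higher for anemia against neonatal CD45+ cells, 2 lower, 1 lower, and 3 higher with 1 lower for the CD45- comparisons in the same order, 2, 1 and 3 for the interaction terms, 1 higher and 1 lower for tumor CD45+ cells against MDSC, and 3 lower for tumor CD45- cells against MDSC. Leaving out single libraries gave 0 to 2 genes higher in the anemia CD45 contrast, 0 to 1 higher and 1 to 3 lower for anemia against neonatal CD45+ cells, 0 to 2 lower for tumor against neonatal CD45+ cells, 5 to 6 higher and 1 to 2 lower for tumor CD45- cells against MDSC, and 0 to 1 for the anemia minus neonatal interaction. The 3 ratios kept their direction and their side of the threshold in each alternative tried, and ran from 1.06 to 1.34, 1.39 to 1.72 and -1.0 to -0.73 without single libraries.

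Counts over all genes moved more. For tumor against anemia CD45+ cells 1201 genes passed, 723 with a pseudocount of 0.1, 3508 without the third libraries and 546 to 2227 without single ones. For tumor against neonatal CD45+ cells 740 passed, 1238 without the filter, 2022 without the third libraries and 429 to 1136 without single ones. For anemia against neonatal CD45+ cells 2277 passed, 4000 without the third libraries and 1508 to 2540 without single ones. Among CD45- cells 17 passed for tumor against anemia (35 after median-ratio scaling, 26 without haemoglobin genes, 41 in one fit, 552 without the third libraries, 0 to 90 without single ones). For tumor against neonatal mice 284 passed (707 with the pseudocount, 581 without the filter, 483 after median-ratio scaling, 1483 without the third libraries, 155 to 374 without single ones). For anemia against neonatal mice 486 passed (810, 793, 799, 2524, and 212 to 629 in the same order). The interaction terms gave 246 for tumor minus anemia (61 with the pseudocount, 384 in one fit, 1822 without the third libraries, 84 to 1184 without single ones), 121 for tumor minus neonatal mice (233 without the filter, 730 without the third libraries, 43 to 395) and 776 for anemia minus neonatal mice (349 with the pseudocount, 1791 without the third libraries, 429 to 1135). Tumor CD45+ cells against MDSC gave 658 (392 after quantile normalization, 1109 in one fit, 258 without the third libraries, 246 to 587 without single ones). The split of higher and lower genes also moved with scaling where the report does not give it. Without haemoglobin genes it went from 651 and 550 to 547 and 779 (tumor against anemia CD45+ cells), from 1016 and 1261 to 1343 and 981 (anemia against neonatal CD45+ cells), from 202 and 44 to 158 and 72 (tumor minus anemia) and from 1466 and 4316 to 2272 and 3134 (tumor CD45- cells against MDSC). After quantile normalization it was 101 and 248 against 45 and 239 (tumor against neonatal CD45- cells), 217 and 358 against 106 and 380 (anemia against neonatal CD45- cells; 271 and 528 after median-ratio scaling), 166 and 70 (tumor minus anemia), 248 and 144 (tumor CD45+ cells against MDSC) and 2896 and 2495 (tumor CD45- cells against MDSC). For tumor minus neonatal mice it went from 57 and 64 to 122 and 58 after median-ratio scaling. Without read counts, no limit set by depth could be given.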
